A study of Mus musculus with 6 samples.

Results

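Ribosome biogenesis was examined through 44 genes, grouped by the step at which their products act in making the ribosome. The genes were listed by function, and a gene counted as measured where a probe set was annotated to that gene alone. By this rule 43 of the 44 genes were measured, out of 18193 named genes in all, with 91 of the 45037 probe sets tested. Npm3, of the nucleoplasmin family, had no probe set named here. The 43 genes were 6 of RNA polymerase I transcription, 4 of box C/D particles, 5 of box H/ACA particles, 12 of small subunit processing, 12 of large subunit processing and 4 nucleolar factors that act at several steps.

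The arrays compared differentiated with proliferating C2C12 cells, an immortalized mouse myoblast line that forms multinucleated myotubes when serum is withdrawn. Differentiated cells were harvested on day 6 in 2% horse serum, and proliferating cells were grown in 20% serum. Each group had 3 RNA samples with 1 Affymetrix array each, and every sample combined 3 pools that had each been made from 3 plates grown in parallel. Since the samples were pools of a single cell line, p-values measured the spread between pools, and since part of a C2C12 culture stays mononucleated, the differentiated samples mixed myotubes with other cells.

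Ribosomes are built in the nucleolus. RNA polymerase I transcribes a long precursor of most rRNAs, small nucleolar particles guide the ribose methylation (box C/D) and pseudouridylation (box H/ACA) of its nucleotides, and separate sets of assembly factors cut, fold and export the small and the large subunit. The pathway takes up much of the biosynthetic effort of growing cells, and myoblasts stop dividing when they form myotubes.

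Levels are linear MAS5 signals, in arbitrary units set so that the trimmed mean of each array was about 250, and they compare one probe set between arrays but not different genes with each other. Each gene is represented by its brightest probe set, and a fold change is the differentiated minus the proliferating mean of log2(signal + 15). A gene was called lower or higher at an adjusted p under 0.05 in limma, taken over all probe sets. The median signal of all probe sets ran from 72.3 to 81.4 on differentiated and from 68.0 to 73.0 on proliferating arrays. All 43 brightest probe sets lay above the brightest bacterial control probe set (51.9 to 87.0) on all 6 arrays. The summed signal of 10 skeletal muscle markers was 65222 to 69776 on differentiated and 6030.5 to 7030.2 on proliferating arrays, with 8 of 10 called higher and Myh2 at background throughout. The summed signal of 9 cell division markers was 4336 to 4448 on differentiated and 27893 to 28908 on proliferating arrays, with all 9 called lower. Of 8 fibroblast markers 4 were higher, with sums of 63810 to 71112 on differentiated and 46352 to 47151 on proliferating arrays and Thy1 at background, whereas 5 adipocyte markers summed to 208 to 332 on differentiated and 266 to 336 on proliferating arrays, with Lep and Cidec at background. The part of these differences in cell state and cell makeup in the values below was not tested, and fewer cells of a type cannot be told apart from less RNA per cell. Differentiated replicate 3 stood apart in its signals at control probe sets for 18S rRNA, so the counts below were also taken without it.

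Genes of every step were lower in differentiated cells, and none was called higher. Of the 43 measured genes, 27 were lower and 16 were not called, against a background of 9.05% of all named genes called lower and 8.67% called higher. The genes were chosen with earlier results of these data known, so their share is not that of an independent list. At an unadjusted p under 0.05, 31 genes were lower and 1 was higher. The median log2 fold change was -0.58 (quartiles -0.77 and -0.30, range -1.41 to 0.38), where the median over all named genes was 0.06. In 21 genes the call came with a change of at least 1.5-fold, as it did in 6.42% of all named genes. The 3 differentiated values lay wholly below the 3 proliferating values in 32 genes and wholly above them in 1, while 15.5% and 18.0% of all named genes did so. The fitted change was below zero in 40 genes, against 45.4% of all named genes. Dim genes are rarely called, and among the 8221 named genes at least as bright as the dimmest of the set, 18.6% were lower and 16.6% higher. Of these 8221 genes, 1047 were called lower by at least 1.5-fold and 4155 had a change below zero. The differentiated values lay wholly below the proliferating ones in 2257 of them and wholly above in 2129. The count depended on the variance model, and with eBayes without trend 9 of the 27 calls remained. Without differentiated replicate 3, 22 of the 27 calls remained, and those of Polr1a, Tcof1, Rrp9, Wdr3 and Pes1 did not.

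Medians by step ran from about -1.10 to -0.34. The genes of the modification particles had medians of -1.09 (box C/D, 4 of 4 lower) and -1.10 (box H/ACA, 4 of 5 lower). The nucleolar factors of several steps had a median of -0.69 with 4 of 4 lower, and the genes of RNA polymerase I transcription one of -0.64 with 3 of 6 lower. Small subunit processing had a median of -0.34 with 6 of 12 lower, and large subunit processing one of -0.40 with 6 of 12 lower. These medians describe the listed genes, and the difference between steps was not tested. The 7 genes that were lower by 2-fold or more were Nop56, Npm1, Fbl, Gar1, Nolc1, Nhp2 and Dkc1. Of these, 6 were grouped with the particles, with Nolc1 counted under box H/ACA as a chaperone of both kinds.

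**Figure D1:**
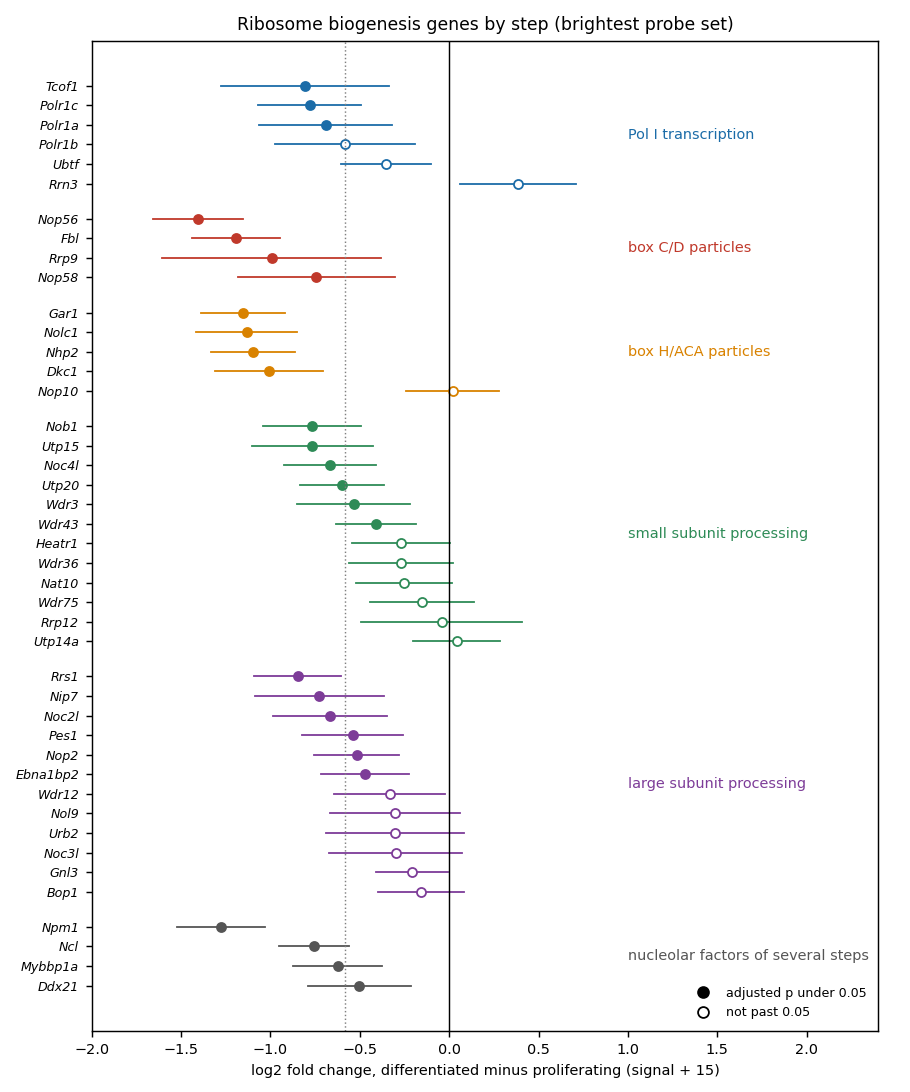
Log2 fold change (differentiated minus proliferating, on log2(signal + 15)) of each of the 43 genes at its brightest probe set, arranged by step, with 95% confidence intervals from limma and filled points for genes called at an adjusted p under 0.05. All filled points lie left of zero, and the other 4 genes of box H/ACA particles lie near -1 while Nop10 (0.02) lies at zero. The dotted line marks a level 1.5-fold lower in differentiated cells.

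On the array level the median signal of the 43 genes was 549, 564 and 598 on the differentiated arrays and 829.5, 831 and 767 on the proliferating arrays. The sums were 35518, 34858 and 36511 on the differentiated and 57672, 59854 and 53813 on the proliferating arrays. Both measures were lower on each differentiated array than on any proliferating array. By step, the medians of the box C/D genes were 542, 485.5 and 714 on differentiated and 1248, 1536 and 1218 on proliferating arrays, and those of the large subunit genes were 488, 445 and 513 on differentiated and 759, 799 and 683 on proliferating arrays. In both steps the groups did not overlap either.

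**Figure D2:**
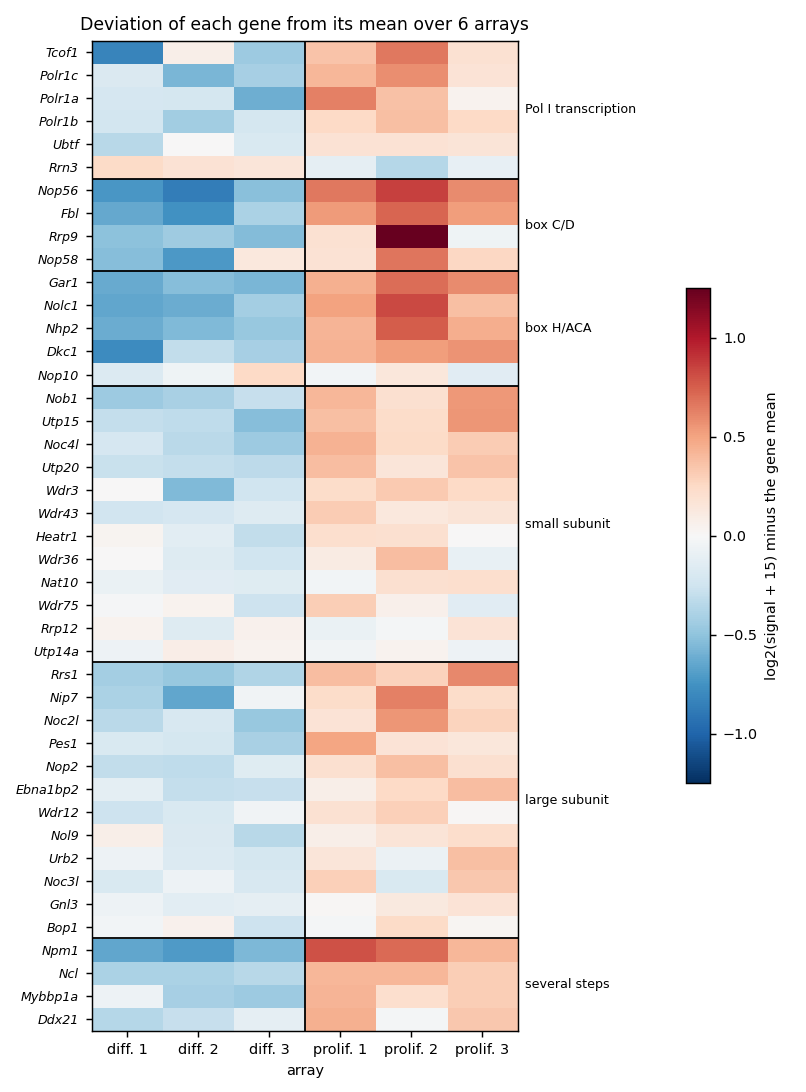
Log2(signal + 15) of each of the 43 genes (rows, by step) on the 3 differentiated arrays (left) and the 3 proliferating arrays (right), shown as the difference from the mean of the gene over its 6 arrays (colour, log2 units). Most rows are below their mean on all differentiated arrays, and Rrn3 is the row with the reverse order.

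The start of these genes was compared for short motifs. E-boxes bound by Myc and its partners are known from promoters of ribosome biogenesis genes. Whether the lower Myc signal given below had a part in the changes of these genes was not tested. Promoters, from 250 bases before to 50 bases after the RefSeq start on GRCm38.p6, were given for 37 of the 44 genes (Npm3 among them), and not for Tcof1, Rrs1, Wdr36, Fbl, Rrp12, Npm1 and Bop1. The 37 genes had 46 promoters, and a gene counted where any of its promoters held the motif. Shares of all promoters count each promoter alone and so are not shares of genes. The E-box CACGTG (the same on both strands) was present in 6 of the 37 (16.2%), against 10.2% of 14450 measured genes and 7.15% of all promoters of that length. It occurred in 5 of 23 genes called lower (21.7%) and in 1 of 13 measured genes not called (7.69%). Among 78 further genes of the same 4 kinds of step it was present in 23.1%. All 6 genes with an E-box are shown. They were Mybbp1a (-0.62), Utp20 (-0.60), Pes1 (-0.54), Nop2 (-0.52) and Wdr43 (-0.41), which were lower, and Rrn3 (0.38), which was not called and held 2 copies. None of the genes lower by 2-fold or more that had a promoter (Nop56, Gar1, Nolc1, Nhp2 and Dkc1) held an E-box. It began 60 bases before the start in Nop2, 215 and 48 bases before it in Rrn3, and after it in the other 4 genes. Capitals mark the E-box in 60 bases around it, read 5′ to 3′ on the strand of the gene.
Mybbp1a, chr11:72441317-72441376, plus strand: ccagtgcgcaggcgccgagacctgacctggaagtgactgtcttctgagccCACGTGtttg
Utp20, chr10:88826765-88826824, minus strand: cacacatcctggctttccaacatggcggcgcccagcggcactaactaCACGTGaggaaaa
Pes1, chr11:3963950-3964009, plus strand: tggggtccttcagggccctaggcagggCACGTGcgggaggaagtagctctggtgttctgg
Nop2, chr6:125131796-125131855, plus strand: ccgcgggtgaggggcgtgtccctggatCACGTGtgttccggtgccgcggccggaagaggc
Wdr43, chr17:71616205-71616264, plus strand: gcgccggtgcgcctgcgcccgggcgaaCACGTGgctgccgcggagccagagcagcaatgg
Rrn3, upstream copy, chr16:13780457-13780516, plus strand: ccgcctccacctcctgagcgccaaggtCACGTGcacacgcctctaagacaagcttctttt
Rrn3, downstream copy, chr16:13780624-13780683, plus strand: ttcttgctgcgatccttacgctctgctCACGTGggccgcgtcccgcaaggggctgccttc

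Of 5 further motifs, searched on both strands and chosen after the fold changes were known, the ETS motif CCGGAAG was present in 13 of 37 genes (35.1%), against 2164 of 14450 measured genes and 8.86% of all promoters. It was found in 9 of 23 genes called lower (39.1%) and in 4 of 13 not called (30.8%), and in 44.9% of the 78 further genes. The GC box GGGCGG was present in 75.7% of the 37 genes (57.3% of measured genes, 35.7% of all promoters) and CCAAT in 35.1% (42.0% and 37.4%). The YY1 motif AGATGGC was present in 2.7% (7.47% and 6.4%) and the NRF1 motif GCGCATG in 8.11% (6.3% and 3.91%). Among the 5 box H/ACA genes, Gar1, Nhp2 and Nolc1 held an ETS motif, whereas Dkc1, also lower by 2-fold, and Nop10, which was not called, did not, and neither did Nop56. The 3 motifs are shown for this comparison and began 43 (Gar1), 23 (Nhp2) and 14 (Nolc1) bases before the start (capitals, with the motif of Gar1 on the opposite strand).
Gar1, chr3:129831406-129831465, minus strand: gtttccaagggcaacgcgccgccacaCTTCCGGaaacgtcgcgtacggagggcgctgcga
Nhp2, chr11:51619724-51619783, plus strand: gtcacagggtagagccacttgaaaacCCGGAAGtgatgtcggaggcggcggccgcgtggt
Nolc1, chr19:46075807-46075866, plus strand: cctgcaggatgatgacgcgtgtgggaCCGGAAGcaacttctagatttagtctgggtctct
A match shows only that these letters stand in the window, and binding was not measured.

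Among the genes of RNA polymerase I transcription, 2 of the 3 subunits in the set were lower and the initiation factor was not. Subunits outside the set were not called. They were Polr1d (-0.0023), Polr1e (-0.27), Polr1f (0.02), Polr1g (-0.25) and Polr1h (-0.06). Polr1c, a subunit shared by RNA polymerases I and III, had signals of 857, 648 and 724 in differentiated cells and 1305, 1462 and 1099 in proliferating cells. All differentiated arrays were below all proliferating ones, with a log2 fold change of -0.78 (SE 0.13, adjusted p = 0.0014). Polr1a, the largest subunit, had signals of 393, 390.1 and 292 in differentiated cells and 714, 591 and 469 in proliferating cells. These groups did not overlap either, and the change was -0.69 (SE 0.17, adjusted p = 0.018). Tcof1 encodes treacle, a nucleolar cofactor of the polymerase. Its signals were 180.0, 347 and 236 in differentiated cells and 427, 529.7 and 378 in proliferating cells, a change of -0.81 (SE 0.22, adjusted p = 0.027). The groups of Tcof1 did not overlap, but differentiated replicate 2 lay close to proliferating replicate 3. Its other probe sets were not called, at -0.52 (adjusted p = 0.0504) and -0.31 (adjusted p = 0.51). With all averaged the gene was lower (-0.55, adjusted p = 0.0427).

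Polr1b, the second largest subunit of the enzyme, had signals of 184, 157 and 185 in differentiated cells and 261, 287 and 261 in proliferating cells. The groups did not overlap, but the change of -0.58 (SE 0.18) missed the threshold at an adjusted p of 0.054. Ubtf, which binds the promoter of the rRNA genes, had signals of 573, 730.0 and 639 in differentiated cells and 829.5, 831 and 820.5 in proliferating cells, again without overlap, and a change of -0.35 with an adjusted p of 0.068. Rrn3, the factor that brings RNA polymerase I to its promoter, was looked at after its values were seen, as the gene of the set with the highest fold change. It had signals of 374, 359.5 and 351 in differentiated cells and 289.5, 242 and 292 in proliferating cells. All 3 differentiated values were above all proliferating ones, yet the change of 0.38 (95% confidence interval 0.06 to 0.71) was not called (adjusted p = 0.14). The change of Rrn3 exceeded the mean change of Polr1a, Polr1b and Polr1c by 1.07 on the log2 scale, a difference chosen for its size and given without a test. This mean used the brightest probe set of Polr1a, whose other probe set above background gave 0.30 (adjusted p = 0.64). It left out Polr1d to Polr1h, whose changes of -0.27 to 0.02 were nearer to that of Rrn3. The calls in this step depended on single arrays. Only Polr1c was lower without differentiated replicate 3, without proliferating replicate 1 or without proliferating replicate 2, when Polr1a had adjusted p-values of 0.0703, 0.0916 and 0.054 and Tcof1 of 0.0786, 0.0739 and 0.115, and Tcof1 was also not called without differentiated replicate 1 (0.116). With eBayes without trend none of the 3 was called (0.0821 for Polr1c, 0.16 for Polr1a and 0.175 for Tcof1).

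All 4 genes of the box C/D particles, which carry the ribose methylation of rRNA, were lower. Nop56, a core protein of the particle, had signals of 699, 635 and 809 in differentiated cells and 1856, 2125 and 1760.1 in proliferating cells. It had the lowest fold change of the 43 genes, 2.65-fold lower (log2 fold change -1.41, SE 0.12, adjusted p = 3.5e-06), and its other probe set gave -1.42. Fbl encodes fibrillarin, the methyltransferase of the particle. Its signals were 958, 882 and 1136 in differentiated cells and 2182, 2500.1 and 2163 in proliferating cells, 2.29-fold lower (log2 fold change -1.19, SE 0.11, adjusted p = 1.1e-05). For both genes the highest differentiated value was well below the lowest proliferating value.

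Nop58, the partner of Nop56 in the particle, had signals of 385, 336 and 618 in differentiated cells and 639.6, 905 and 677 in proliferating cells. Differentiated replicate 3 nearly reached the lowest proliferating array, and the change was -0.74 (SE 0.20, adjusted p = 0.03). Rrp9, a protein specific to the U3 particle that is needed for cutting the rRNA precursor, had signals of 249, 262 and 244 in differentiated cells and 414, 948 and 347 in proliferating cells. The groups did not overlap, while proliferating replicate 2 was far above the other arrays of its group. The change of -0.99 (SE 0.28, adjusted p = 0.036) became -0.56 without that array (adjusted p = 0.0573), and the call was also lost without differentiated replicates 1, 2 or 3 (0.109, 0.0855 and 0.0985). Nop58 was not called without differentiated replicate 1 or 2 or proliferating replicate 2 or 3 (0.125, 0.13, 0.127 and 0.0665). The count of this step was therefore 2 of 4, Nop56 and Fbl, without differentiated replicate 1, differentiated replicate 2 or proliferating replicate 2, and the same 2 genes were called with eBayes without trend.

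The box H/ACA particles, which convert uridines of rRNA to pseudouridine and also bind telomerase RNA, have 4 core proteins, and 3 of the 4 were lower by 2-fold or more. Gar1 had signals of 526, 564 and 549 in differentiated cells and 1121, 1346 and 1241 in proliferating cells, 2.22-fold lower (log2 fold change -1.15, SE 0.11, adjusted p = 1e-05). Nhp2 had signals of 1093, 1148 and 1209 in differentiated cells and 2273, 2868 and 2324 in proliferating cells, 2.14-fold lower (log2 fold change -1.10, SE 0.11, adjusted p = 1.6e-05). Dkc1, which encodes dyskerin, the pseudouridine synthase itself, had signals of 313, 439 and 407 in differentiated cells and 745, 794 and 815 in proliferating cells, 2.01-fold lower (log2 fold change -1.01, SE 0.14, adjusted p = 0.00026). In each of these genes the groups were far apart, and both probe sets of Nhp2 and all 3 of Dkc1 were lower.

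Nop10, the smallest protein of the same core, did not follow them. It had signals of 3466, 3757 and 4620.0 in differentiated cells and 3812, 4287 and 3529 in proliferating cells. The groups overlapped fully, with a log2 fold change of 0.02 (95% confidence interval -0.24 to 0.28, adjusted p = 0.95), and its other probe set gave 0.16 (-0.10 to 0.42, adjusted p = 0.51). The change of Nop10 exceeded the mean change of Dkc1, Nhp2 and Gar1 by 1.11 on the log2 scale, again a difference chosen for its size and given without a test. Nolc1 encodes Nopp140, a chaperone of both kinds of particle, and had signals of 524, 537 and 616 in differentiated cells and 1183, 1485 and 1085 in proliferating cells. It was 2.19-fold lower with no overlap (log2 fold change -1.13, SE 0.13, adjusted p = 5.8e-05), and 1 of its 3 probe sets gave -0.13 (adjusted p = 0.74). The 4 calls of this step were kept when any single array was left out.

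**Figure D3:**
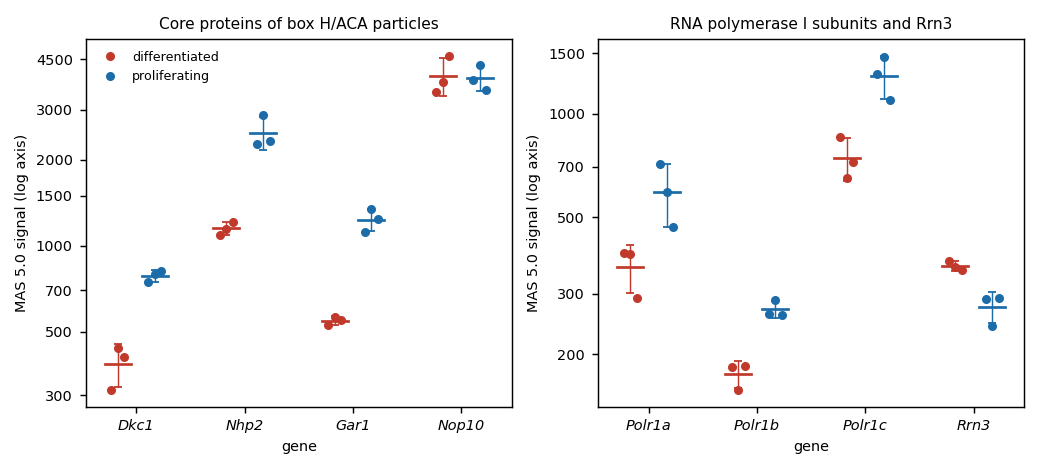
MAS5 signal (log axis) of the 4 core proteins of the box H/ACA particles (left) and of 3 RNA polymerase I subunits with Rrn3 (right) on each array, differentiated in red left of proliferating in blue, with the mean and SD of 3 arrays per group. Nop10 overlaps between the groups (means of 3948 in differentiated and 3876 in proliferating cells) and Rrn3 is higher on all differentiated arrays, while the other genes are lower on all of them.

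In small subunit processing 6 of 12 genes were lower. Nob1, the endonuclease that makes the final cut at the end of 18S rRNA, had signals of 423, 437 and 477 in differentiated cells and 783, 673 and 859 in proliferating cells, a log2 fold change of -0.77 (SE 0.13, adjusted p = 0.001). Utp15, of the processome that forms on the rRNA precursor, had signals of 257, 253 and 216 in differentiated cells and 418, 376 and 474 in proliferating cells, a change of -0.77 (SE 0.16, adjusted p = 0.0049). Neither gene overlapped between the groups at these probe sets, but the second probe set of Utp15 gave -0.30 (adjusted p = 0.65), and with both averaged the gene was not called (-0.53, adjusted p = 0.0975). Noc4l, a nucleolar protein of small subunit assembly, had signals of 528, 479 and 442 in differentiated cells and 833, 725 and 767 in proliferating cells, a change of -0.67 (SE 0.12, adjusted p = 0.0019), and 3 of its 4 probe sets were lower. Utp20, another processome component, had signals of 618, 608 and 598 in differentiated cells and 989, 837 and 969 in proliferating cells, a change of -0.60 (SE 0.11, adjusted p = 0.0022). Both groups of Utp20 were tight and did not overlap.

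Within the subcomplexes of the processome, some components were called and others were not. Wdr43, of the UtpA subcomplex, had signals of 746, 762 and 792 in differentiated cells and 1109, 975.3 and 991 in proliferating cells, with no overlap and a change of -0.41 (SE 0.10, adjusted p = 0.017). Heatr1 (-0.27, 95% confidence interval -0.54 to 0.00) and Wdr75 (-0.15, -0.45 to 0.14), of the same subcomplex, were not called. Wdr3, of the UtpB subcomplex, was lower (-0.54, adjusted p = 0.028) and Wdr36, its partner there, was not called (-0.27, -0.56 to 0.02). The others not called were Nat10, which acetylates 18S rRNA (-0.25, -0.52 to 0.02), the processome protein Utp14a (0.04, -0.20 to 0.28) and Rrp12, of pre-ribosome maturation and export (-0.04, -0.49 to 0.41). All of these intervals except that of Utp14a include a change as large as that of Wdr43, so equal levels were not shown. The call of Wdr43 was lost without differentiated replicate 1 or 2 or proliferating replicate 1 (adjusted p = 0.0721, 0.0556 and 0.0793) and with the mean of its 2 probe sets (0.0834), and that of Wdr3 without differentiated replicate 2 or 3 or any single proliferating array (0.0643 to 0.112). With eBayes without trend none of the 6 genes was called, at adjusted p-values of 0.0588 (Nob1) to 0.211 (Wdr43).

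In large subunit processing 6 of 12 genes were lower as well, 3 of them by 1.5-fold or more. Rrs1, which helps to bring the 5S particle into the large subunit, had signals of 589.8, 569 and 608 in differentiated cells and 1040.2, 976 and 1211 in proliferating cells. The groups were far apart, with a change of -0.85 (SE 0.11, adjusted p = 0.00019) and both probe sets lower. Nip7, an assembly factor of the large subunit precursor, had signals of 435, 362 and 561 in differentiated cells and 679, 900.4 and 681 in proliferating cells, a change of -0.73 (SE 0.17, adjusted p = 0.011). Its dimmer probe set had the opposite sign (0.69, adjusted p = 0.3), and the mean of both was -0.016. Noc2l, of the nucleolar complex that escorts the large subunit precursor, had signals of 318, 351 and 288 in differentiated cells and 458, 599.7 and 495 in proliferating cells, a change of -0.67 (SE 0.15, adjusted p = 0.0085). Its second probe set gave -0.18 (adjusted p = 0.68), and with both averaged it was not called (-0.42, adjusted p = 0.0633). Its relative Noc3l was not called (-0.30, 95% confidence interval -0.67 to 0.07).

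The 3 proteins of the PeBoW complex, which is needed for maturation of the large subunit rRNAs, differed in their calls. Pes1 had signals of 541, 528 and 464 in differentiated cells and 877, 698 and 684 in proliferating cells, with no overlap and a change of -0.54 (SE 0.13, adjusted p = 0.014). Bop1 had signals of 1754, 1861 and 1498 in differentiated cells and 1767, 2119 and 1820.5 in proliferating cells, which overlapped, and a change of -0.16 (95% confidence interval -0.40 to 0.08, adjusted p = 0.47). Wdr12 had a change of -0.33 (-0.64 to -0.02, adjusted p = 0.18), so none of the 3 intervals lies apart from the others. Nop2, a methyltransferase of 28S rRNA (-0.52, adjusted p = 0.0064), and Ebna1bp2, an assembly factor (-0.47, adjusted p = 0.014), were lower. Gnl3, which encodes nucleostemin, a nucleolar GTPase of stem and cancer cells, was not called (-0.21, -0.41 to -0.01, adjusted p = 0.2), nor were Nol9, a polynucleotide kinase of rRNA processing (-0.30, adjusted p = 0.32), and Urb2 (-0.30, adjusted p = 0.36). Calls lost when 1 array was left out were Pes1 without differentiated replicate 3 or proliferating replicate 1 (adjusted p = 0.0554 and 0.0725), Nip7 without replicate 2 of the differentiated or of the proliferating group (0.0513 and 0.0517), and Ebna1bp2 without differentiated replicate 2 or proliferating replicate 3 (0.0576 and 0.0696). Ebna1bp2 was also not called with its 3 probe sets averaged (0.107). The count of this step was 3 where a change of 1.5-fold was required as well, and 1 (Rrs1) with eBayes without trend.

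The abundant nucleolar proteins that act at several steps were all lower. Npm1 encodes nucleophosmin, a histone and ribosome chaperone that organizes the outer nucleolus. Its signals were 3776, 3619 and 4019 in differentiated cells and 10263, 9676 and 7915 in proliferating cells, 2.42-fold lower (log2 fold change -1.28, SE 0.11, adjusted p = 6e-06), and its other probe set gave -0.81 (adjusted p = 0.00069). Ncl, nucleolin, which binds nascent rRNA, had signals of 4058, 4070.0 and 4214 in differentiated cells and 7117, 7140.0 and 6621 in proliferating cells, a change of -0.76 (SE 0.09, adjusted p = 8.1e-05). In both genes the groups were well separated, and all 5 probe sets of Ncl had a negative change, 3 of them called.

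Mybbp1a, a nucleolar Myb-binding protein, had signals of 2349, 1844 and 1798 in differentiated cells and 3304, 2848 and 3046 in proliferating cells, a change of -0.62 (SE 0.11, adjusted p = 0.0025). The groups did not overlap, and its second probe set was lower too (-0.57). Ddx21, an RNA helicase of rRNA transcription and processing, had signals of 617, 648 and 730.5 in differentiated cells and 1081, 779.8 and 1006 in proliferating cells, a change of -0.50 (SE 0.13, adjusted p = 0.025). The lowest proliferating array lay just above the highest differentiated array. The brightest probe set of Ddx21 was not called without differentiated replicate 1 or 2 or proliferating replicate 1 or 3 (adjusted p = 0.0809 to 0.115), while its other probe set was lower at -0.61 (adjusted p = 0.0017). With eBayes without trend Npm1 and Ncl were called and Mybbp1a and Ddx21 were not (0.122 and 0.219).

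Probe sets of the same gene mostly moved together. Of the 91 probe sets, 42 were lower and none was higher, where 6.43% of all probe sets were lower and 6.14% higher. At an unadjusted p under 0.05 these were 52 lower and 2 higher. Among 27 genes with 2 or more probe sets above background, all such probe sets had a negative change in 22 genes. Both signs occurred in 4 genes, Polr1a, Nip7, Noc3l and Nol9, and both probe sets of Nop10 had a positive change. The highest change of the 91 probe sets was 1.37, at the dimmest probe set of Nol9, which was not called (adjusted p = 0.12). Its signal was above background on only 1 proliferating array. In Polr1a the brightest probe set alone was called, and with all 5 probe sets averaged its change was -0.020 (adjusted p = 0.975). All probe sets above background were called lower in 9 genes, which were Nop56, Fbl, Dkc1, Nhp2, Npm1, Rrs1, Polr1c, Mybbp1a and Ddx21. The brightest probe set of 6 genes (Polr1c, Fbl, Nop56, Nhp2, Gar1 and Rrs1) is of a type that can match transcripts of more than 1 gene. Without such probe sets Gar1 was not measured, and the other 5 were still lower at another probe set.

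Further genes of the same 4 kinds of step were taken from lists made by function. Of 94 measured genes in these lists, 21 were lower (22.3%) and 2 were higher (2.13%), with a median of -0.21. Of all named genes, 9.05% were lower and 8.67% higher. Of named genes at least as bright as the dimmest of the 43, 18.6% were lower and 16.6% higher. The share of the 94 called lower was thus near that of bright genes, and the share called higher was below it. The difference of the 94 from the 43 was not tested. None of 10 further genes of RNA polymerase I transcription, with the subunits Polr1d to Polr1h among them, was called (median -0.10, none at an unadjusted p under 0.05). Of 8 further genes of small nucleolar particles 3 were lower (median -0.40), and they included both ATPases that assemble the particles, Ruvbl2 (-1.24) and Ruvbl1 (-0.69). Of 37 further genes of small subunit processing 8 were lower (median -0.18, with Aatf at -0.91), and 2 were higher. The higher ones were Riok2, a kinase of the last steps of small subunit maturation (0.56, adjusted p = 0.021), and Utp6, of the UtpB subcomplex (0.52, adjusted p = 0.024). Of 39 further genes of large subunit processing 10 were lower and none higher (median -0.29, with Pa2g4 at -0.78 and Nop16 at -0.75).

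**Figure D4:**
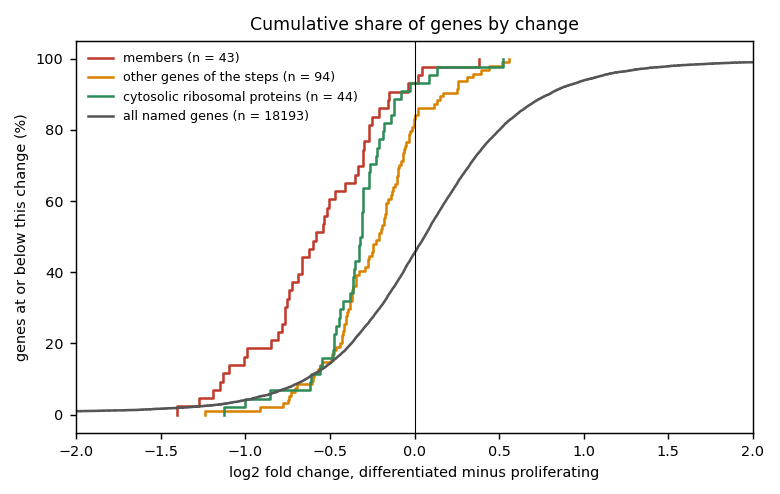
Cumulative share of genes (percent, vertical) whose change lies at or below each log2 value (horizontal, differentiated minus proliferating) for the 43 ribosome biogenesis genes, the 94 other genes of the same 4 kinds of step, 44 cytosolic ribosomal proteins and all 18193 named genes. The median of the 43 genes lies at -0.58, those of the other lists at -0.21 and -0.32, and that of all named genes at 0.06.

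Neighbouring pathways were counted in the same way. For comparison, 9.05% of all named genes were lower and 8.67% higher. Among named genes at least as bright as the dimmest of the ribosome biogenesis set, these shares were 18.6% and 16.6%. The difference of each list below from these shares was not tested. Of 44 cytosolic ribosomal proteins measured among 79 listed, 14 were lower (31.8%) and none higher, with a median change of -0.32. Their median signals were 12794 in differentiated and 17200 in proliferating cells. Of 14 genes of the RNA exosome, which trims rRNA precursors, 4 were lower (28.6%). They were led by Exosc8 (-1.68, adjusted p = 6e-07) and the nuclease Dis3 (-1.40, adjusted p = 2.7e-06). Of 19 genes of RNA polymerase III, which makes 5S rRNA and tRNAs, 3 were lower (15.8%) and 1 was higher (5.26%), with a median of -0.07. The higher one was Polr3gl at 1.03 (adjusted p = 0.0011). Polr3g, the other form of this subunit, was near background and not called (-0.20, adjusted p = 0.86).

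Myc, the transcription factor known to drive ribosome biogenesis in growing cells, had signals of 675, 564 and 653 in differentiated cells and 1014, 1287 and 1153 in proliferating cells. The groups did not overlap, with a log2 fold change of -0.85 (SE 0.12, adjusted p = 0.00032). Of 12 genes of the Myc network 2 were lower (16.7%), Myc and the antagonist Mxd3 (-1.09, adjusted p = 0.0018). In this list 1 gene was higher (8.33%), the paralogue Mycl (1.36, adjusted p = 0.0018). Of all named genes, 9.05% were lower and 8.67% higher. Among those at least as bright as the dimmest of the ribosome biogenesis set, 18.6% were lower and 16.6% higher.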

How the data were processed

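Images had been analysed by the authors with MAS5, and the deposited intensity values are linear signals of 6 arrays, 3 per group. GCRMA, which the study applied later, needs probe-level data and was not run. The table had 45101 probe sets, of which 64 were controls of the manufacturer and were dropped. Of the 45037 tested, 34945 carried 1 gene symbol in the platform annotation and 932 several, which were not used to name a gene. The log2(signal + 15) values entered a linear model in limma (version 3.58.1, R 4.3.3, lmFit and eBayes with trend, two-sided), with p-values adjusted by Benjamini-Hochberg over all probe sets. The fit was also run on simulated data whose means and spread were taken from these arrays. Counts and motif searches used Python 3.11.15 (pandas 2.3.3, numpy 2.4.6). A signal was read as background at or below the brightest of 27 Bacillus subtilis control probe sets. Signals of every array are given for the 4 largest called changes and the brightest gene of each step. The genes and lists were chosen with earlier results of these data known, and all motifs other than the E-box were added later. Alternatives covered scaling, pseudocount, dim probe sets, variance model, regularized test, fold threshold, probe set choice, replicate block and leaving out each array. The number of arrays limits the precision of every value.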

Additional observations from a re-analysis of the deposited data

Results flagged for a closer look

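Control probe sets for 18S rRNA, which no comparison above used, gave a signal of 104.1 at the middle of the transcript on differentiated replicate 3, against 16.8 and 13.6 on the other differentiated arrays and 11.1 to 20.5 on the proliferating arrays. It was picked out because the signal lay above that of all proliferating arrays, in data outside the main measurement. At the 5′ end of 18S rRNA the same array had 141.5, against 37.5 and 26.3 on the other differentiated arrays and 8.6 to 57.1 on the proliferating arrays. At the 3′ end it stood less apart, with 162.8, against 59.4 and 85.3 on the other differentiated arrays and 47.4 to 124.2 on the proliferating arrays. Its part in the values of the 43 genes was not tested beyond leaving the array out, which kept 22 of the 27 calls.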

How the results depend on the processing

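The direction of all 27 called genes was kept under every alternative tried. Under each that gave a value 9 were called: Dkc1, Fbl, Gar1, Ncl, Nhp2, Nolc1, Nop56, Npm1 and Rrs1. Gar1 has no value without probe sets that can match transcripts of more than 1 gene. The variance model mattered most. With eBayes without trend those 9 genes and 15 probe sets were lower, and the counts by step were 0 for RNA polymerase I transcription, 2 for box C/D, 4 for box H/ACA, 0 for small subunit processing, 1 for large subunit processing and 2 for the factors of several steps. The cause was not tested. RNA polymerase I transcription had 5 genes lower with scaling to the 75th percentile and when dim probe sets were dropped, both of which added Polr1b and Ubtf. Large subunit processing had 3 lower when a 1.5-fold change was required, with the mean of all probe sets, and with the regularized test at an unadjusted p under 0.05 and 1.5-fold. Probe sets called higher numbered 1 after dim probe sets were dropped and 2 with that regularized test.

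Leaving out 1 array at a time gave 21 to 23 genes lower and 33 to 37 probe sets lower, with none higher. By step the counts were 1 to 4 (RNA polymerase I transcription), 2 to 4 (box C/D), 4 (box H/ACA), 4 to 5 (small subunit), 4 to 6 (large subunit) and 3 to 4 (several steps). Same-numbered arrays did not deviate together (r of 0.054, 0.0061 and 0.0018), and a fit with the replicate number as a block kept all 27 calls and added none.

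Signs turned only in genes that were not called. Nop10 was -0.032 with scaling to the 75th percentile and ranged from -0.0982 to 0.108 when single arrays were left out (below zero without differentiated replicate 3 and without proliferating replicate 3). Utp14a was -0.010 with that scaling and -0.018 with the mean of all probe sets, where Noc3l was 0.115 and Nol9 was 0.033. Rrp12 ranged from -0.0940 to 0.034 when single arrays were left out, above zero without differentiated replicate 2 (0.028) and without proliferating replicate 3. With 3 arrays per group, changes below 1.5-fold can be missed.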
